A study of Mus musculus with 3 samples.

Results

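The 10 genes described here belong to the Hippo pathway and its effectors, and were taken as the rows of the deposited table whose gene symbol was Yap1, Wwtr1, Tead1, Tead4, Lats1, Lats2, Amotl1, Amotl2, Ccn1 or Ccn2. All 10 symbols had a row among the 17583 genes of the table. The study sequenced RNA bound to endothelial ribosomes of the mouse heart in 3 EC-RiboTag mice of genotype Cdh5-CreERT2;Rpl22tm1.1Psam, on a C57BL/6 background and between 8 and 20 weeks of age by the study's methods. After tamoxifen (1 mg on 5 consecutive days), Cre driven by the promoter of the endothelial cadherin Cdh5 switches the ribosomal protein Rpl22 to a hemagglutinin-tagged form, and tagged ribosomes with their RNA were pulled from heart homogenate with an antibody to the tag. The labels date the hearts to day 7 after a coronary artery was ligated, but the study's methods for RiboTag sequencing name no infarction. Sample titles include Rz without saying what it stands for. The study abbreviates the remote zone of the infarcted heart as RZ, also for EC-RiboTag hearts measured by qRT-PCR at the same time point. It does not say that these libraries come from that zone, so whole heart and remote zone cannot be told apart. Only the labels say that these hearts had been ligated, so whether they were uninjured could not be settled either.

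All 3 libraries share genotype, induction and time point, and the labels call them biological replicates, so each is treated here as 1 mouse. No untagged control and no library of the starting homogenate was analysed here, and the values are therefore levels in the precipitate and not enrichments. In such bulk samples, fewer cells of a type and less RNA per cell cannot be told apart. A value is a read count that the authors scaled by each library's size factor and then rounded, called a normalized count below. The levels of different genes were compared as normalized counts per kilobase (kb) of the canonical transcript, with other lengths as alternatives. Ranks by normalized count and shares of a family's counts are not divided by length, and a long transcript raises them. The authors removed duplicate reads, so a gene can hold little more than 1 read per base of transcript, and of the 17475 genes with a length only 14 exceeded 1 per base. Ccn1, the highest of the 10 genes, stood at 0.499 per base. Below 1 per base, the removal of duplicates can still lower a high gene more than a low one. It can narrow ratios between genes and spreads between mice, and its size here was not tested.

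The Hippo pathway is a kinase cascade that restrains growth. Its upstream kinases activate LATS1 and LATS2, and these phosphorylate the coactivators YAP (Yap1) and TAZ (Wwtr1) and hold them outside the nucleus. Unphosphorylated YAP and TAZ enter the nucleus, bind the TEAD factors and switch on genes such as Ccn1 and Ccn2, which encode secreted matrix-associated proteins. Angiomotins are junction-associated proteins that bind YAP and TAZ in the cytoplasm. In endothelial cells YAP and TAZ are known for roles in vessel sprouting, in junctions and in the response to flow and stretch. Levels of RNA on ribosomes carry no measure of the phosphorylation or the location of these proteins.

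The letters that TEAD factors bind, GGAATG, which read CATTCC on the opposite strand, were searched for in promoter windows from 250 bases before to 50 bases after each start in the RefSeq table, whose build is GRCm38.p6 and not the GRCm39 of the deposited files. The stretches are shown because several of the 10 genes encode the partners or the targets of the TEAD factors themselves. The table held a window for 7 of the 10 genes and none for Tead1, Tead4 and Ccn2. At least 1 match was found in 5 of the 7 (71.4%), whereas 14.7% of all 32851 windows and 14.8% of the 10481 genes with a window that reached 10 normalized counts in every mouse held one. In the stretches below, read 5′ to 3′ on the strand of the gene, capitals mark the match. The match of Yap1 began 141 bases before the start, that of Wwtr1 136 and 170 bases before its 2 annotated starts, that of Amotl2 65 bases before and that of Ccn1 103 bases before.
Yap1 (chr9:8004717-8004752, minus strand): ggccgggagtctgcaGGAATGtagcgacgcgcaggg
Wwtr1 (chr3:57576026-57576061, minus strand): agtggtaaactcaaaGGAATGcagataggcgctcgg
Amotl2 (chr9:102717724-102717759, plus strand): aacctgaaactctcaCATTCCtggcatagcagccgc
Ccn1 (chr3:145650068-145650103, minus strand): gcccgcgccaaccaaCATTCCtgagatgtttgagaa

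Lats2 held its match just after 1 of its 2 annotated starts, and the windows of Amotl1 and Lats1 held none. A match is a description of these letters and not a measured binding site.

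The study compared cell type markers between precipitate and homogenate of EC-RiboTag hearts by qRT-PCR, and those ratios are not used here. In these libraries the endothelial label was checked against marker lists. Each list is given with its highest gene by normalized count, which need not be its highest per kb. The 12 endothelial markers, with the VEGF receptor Flt1 (5352, 4588 and 4816 in mice 1, 2 and 3), had a median of 710.9 per kb and summed to between 27593 and 28759. The 10 cardiomyocyte markers, with Ttn, had a median of 445.55 per kb and summed to 20777, 21264 and 24473. Per kb the cardiomyocyte markers ran from 78.46 (Ttn) to 819.2 and the endothelial markers from 460.8 to 809.4. The highest cardiomyocyte marker thus stood above every endothelial one. The medians of the 8 fibroblast markers (106.59 per kb, with Dcn), the 8 mural markers (47.206 per kb, with Des), the 7 leukocyte markers (28.493 per kb, with Lyz2) and the 4 mesothelial markers (27.1 per kb, with Wt1) were lower. No marker of any list was at 0 in any mouse, and how much of the 10 genes' RNA came from other cells was not tested. The normalized counts summed to between 7149102 and 7268785 per library, and an estimated 6754000 to 7565000 reads lay behind them.

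The 2 coactivators were both well above the typical gene. Yap1 (ENSMUSG00000053110, GRCm39 chromosome 9, minus strand, from 7932000 to 8004597) had 1623, 1534 and 1499 normalized counts in mice 1, 2 and 3, with a mean of 1552 ± 63.9 (SD, n = 3). Wwtr1 (ENSMUSG00000027803, minus strand of chromosome 3 from 57363070 to 57483331), which encodes TAZ, had 2326, 2182 and 2311, with a mean of 2273 ± 79.2 (SD, n = 3). The mice differed little in either gene, and every mouse had more normalized counts of Wwtr1 than of Yap1. By normalized count, Wwtr1 ranked 137 and Yap1 633 among the 17583 genes. Per kb, Wwtr1 stood at 483.62 ± 16.8 and Yap1 at 370.67 ± 15.3 (SD, n = 3), above 96.43% and 91.97% of the genes with a length.

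Within each mouse, the log2 ratio of Yap1 to Wwtr1 per kb was −0.352, −0.342 and −0.458, a mean of −0.38 ± 0.064 (SD, n = 3). TAZ RNA was the higher in all 3 mice, by 1.30-fold on average. The exact sign-flip permutation test, two-sided, gave p = 0.25 (adjusted p = 0.313 over 5 pairs of related genes), and 0.25 is the smallest p that 3 mice allow, so no pair can reach 0.05. Divided by all exons the mean ratio was −0.21 and by coding length −0.81, so its size depends on the length used. Neither transcript has a window of 72 bases, the read length, with an exact copy elsewhere in the genome, so reads of the 2 paralogs could be told apart.

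**Figure D1:**
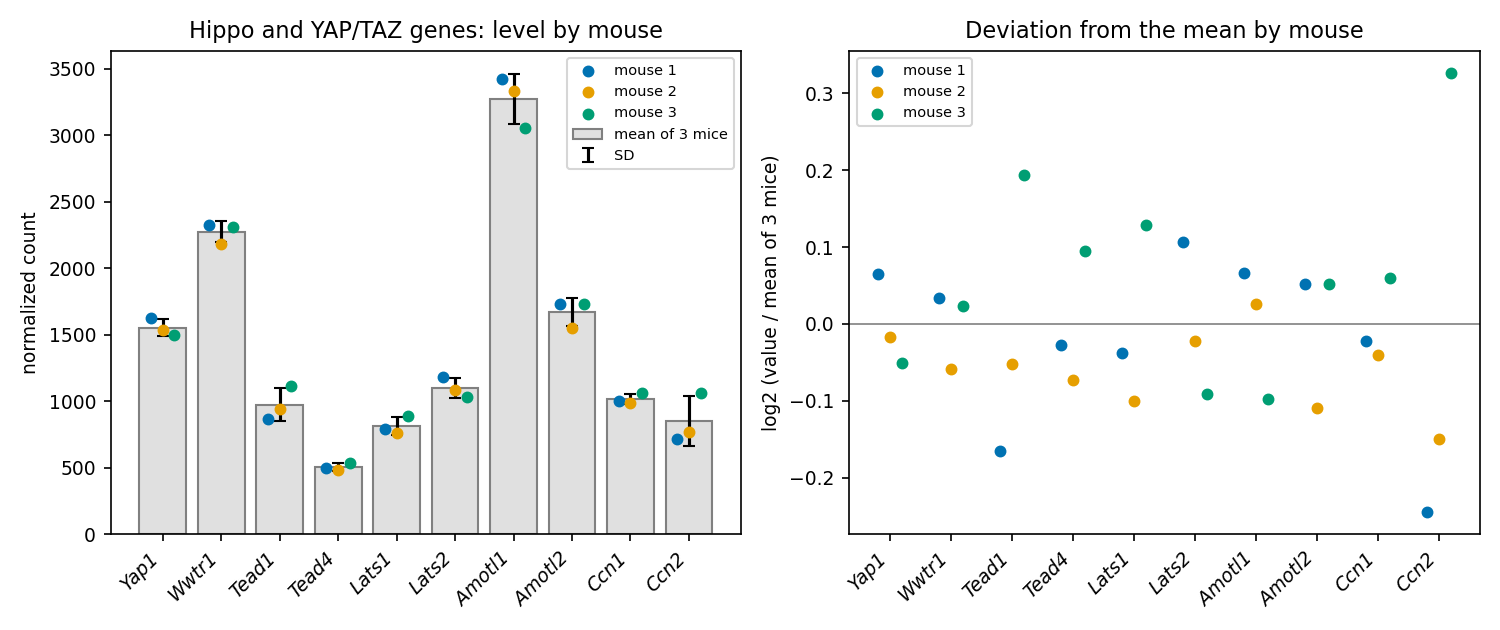
Left, the normalized count of each of the 10 genes (bars, mean of 3 mice; error bars, SD; points, single mice). Right, log2 of each mouse's value over the mean of the 3 mice; Ccn2 is spread most, with mouse 3 on top, and Wwtr1, Ccn1 and Yap1 least.

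The TEAD factors bind DNA and recruit YAP and TAZ to it. Tead1 (ENSMUSG00000055320, plus strand of chromosome 7 from 112278525 to 112506014) had normalized counts of 868, 939 and 1114, with a mean of 974 ± 126.6 (SD, n = 3). Tead4 (ENSMUSG00000030353, minus strand of chromosome 6 from 128201251 to 128277786) had 494, 479 and 538, with a mean of 504 ± 30.7 (SD, n = 3). Both were highest in mouse 3. Their canonical transcripts are long (9969 bases for Tead1 and 5931 for Tead4), and per kb these were the lowest 2 of the 10 genes, at 97.7 ± 12.7 and 84.9 ± 5.17 (SD, n = 3). That is above the median of 72.967 per kb over all genes with a length and below the 114 per kb of the 13801 genes that reached 10 in every mouse.

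The log2 ratio of Tead1 to Tead4 per kb was 0.064, 0.222 and 0.301, a mean of 0.20 ± 0.12 (SD, n = 3; two-sided exact sign-flip test, p = 0.25, adjusted p = 0.313). It was positive in each mouse, but its direction rests on the length used. Divided by the exons of all transcripts the ratio was −0.22, and divided by the coding length it was 0.91. Of the other family members, Tead2 had 819, 882 and 848, and Tead3 had 172, 175 and 211. Of the family's normalized counts, Tead1 held 38.7%, Tead2 33.8%, Tead4 20% and Tead3 7.4%. Per kb of canonical transcript Tead2 was far above the others, at 395.6 ± 14.7 (SD, n = 3), and it was also highest per kb of all exons, at 155.5 against 83.02 for Tead4 and 71.74 for Tead1. Per kb of coding sequence Tead1 stood above Tead2, at 744.4 against 636.5.

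LATS1 and LATS2 are the kinases that phosphorylate YAP and TAZ directly. Lats1 (ENSMUSG00000040021, plus strand of chromosome 10 from 7556978 to 7592224) had normalized counts of 792, 759 and 889, with a mean of 813 ± 67.6 (SD, n = 3). Lats2 (ENSMUSG00000021959, minus strand of chromosome 14 from 57927119 to 57995845) had 1184, 1083 and 1032, with a mean of 1100 ± 77.4 (SD, n = 3). Lats2 had more normalized counts than Lats1 in every mouse, and the mice ranked differently in these genes, with Lats1 highest in mouse 3 and Lats2 lowest there. Per kb, Lats1 stood at 109.42 ± 9.09 and Lats2 at 200.45 ± 14.1 (SD, n = 3). The log2 ratio of Lats1 to Lats2 was −1.02, −0.951 and −0.653, a mean of −0.87 ± 0.19 (SD, n = 3), or 1.83-fold more Lats2 (two-sided exact sign-flip test, p = 0.25, adjusted p = 0.313). The mean ratio was smaller in size under the other lengths, at −0.70 with all exons and −0.55 with coding length.

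Of the 5486 bases of Lats2, 2955 (53.9%) lie in exons that the gene model Gm49361 shares on the same strand, and reads over several genes were dropped by the authors. Gm49361 is in the annotation used here, and whether it was in that of the authors was not checked. It has no row in the deposited table. Over the 2531 bases that Lats2 shares with no other gene, its level would be 434.5 per kb and the log2 ratio of Lats1 to Lats2 would be −1.99, a length chosen after the data were seen. No other of the 10 genes shares exonic bases with a gene of the same strand.

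The angiomotins bind YAP and TAZ at cell junctions and in the cytoplasm. Amotl1 (ENSMUSG00000013076, minus strand of chromosome 9 from 14453262 to 14556352) had normalized counts of 3426, 3333 and 3059, with a mean of 3273 ± 190.8 (SD, n = 3). It ranked 31 of 17583 by normalized count, the highest of the 10 genes. Amotl2 (ENSMUSG00000032531, plus strand of chromosome 9 from 102593871 to 102610617), also a known target of YAP and TAZ, had 1732, 1548 and 1731, with a mean of 1670 ± 105.9 (SD, n = 3). Both were therefore abundant in each mouse, and Amotl1 had about as many reads again as Amotl2, on a transcript of 8985 against 4328 bases.

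Per kb the 2 genes were close, with Amotl1 at 364.24 ± 21.2 and Amotl2 at 385.94 ± 24.5 (SD, n = 3). The log2 ratio of Amotl1 to Amotl2 was −0.0697, 0.0526 and −0.232, a mean of −0.08 ± 0.14 (SD, n = 3; two-sided exact sign-flip test, p = 0.5, adjusted p = 0.5), smaller than its spread. Divided by all exons it was 0.46 and by coding length 0.64, so the order of the 2 depends on the length. Amot, the founding member of the family, had 290, 263 and 369 normalized counts. Amot held 5.85% of the counts of the 3 angiomotins, Amotl1 62.3% and Amotl2 31.8%, and Amot was the lowest of the 3 under each of the canonical, exonic and coding lengths.

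Ccn1 (CYR61) and Ccn2 (CTGF) are the most widely used readouts of YAP and TAZ. Ccn1 (ENSMUSG00000028195, minus strand of chromosome 3 from 145352731 to 145355736) had normalized counts of 999, 987 and 1058, with a mean of 1015 ± 38.0 (SD, n = 3). The table describes this row as Cyclin-L1, the description it also gives to Ccnl1, but its identifier, symbol and position are those of Ccn1 in the annotation. With a canonical transcript of 2032 bases, the shortest of the 10, Ccn1 was the highest of them per kb, at 499.34 ± 18.7 (SD, n = 3), above 96.85% of genes. Ccn2 (ENSMUSG00000019997, plus strand of chromosome 10 from 24471340 to 24474581) had 716, 765 and 1064, with a mean of 848 ± 188.4 (SD, n = 3), or 310.86 ± 69.03 per kb. Mice 1 and 2 were close to each other in Ccn2, and mouse 3 lay 0.52 above their mean on the log2 scale.

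The log2 ratio of Ccn1 to Ccn2 per kb was 0.906, 0.793 and 0.417, a mean of 0.71 ± 0.26 (SD, n = 3), or 1.63-fold (two-sided exact sign-flip test, p = 0.25, adjusted p = 0.313). Ccn1 was the higher in every mouse per kb of canonical transcript. By coding length the mean ratio was 0.16 (two-sided exact sign-flip test, p = 0.5), and the 3 mice did not share its sign. Not divided by length, Ccn2 was slightly the higher in mouse 3, with 1064 against 1058. Of the windows of read length in Ccn2, 5.57% also occur elsewhere in the genome, the highest share among the 10 genes, and reads with several positions had been removed. Antisense genes overlap 906 bases of Ccn2 and 468 of Ccn1, and the authors counted by strand.

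**Figure D2:**
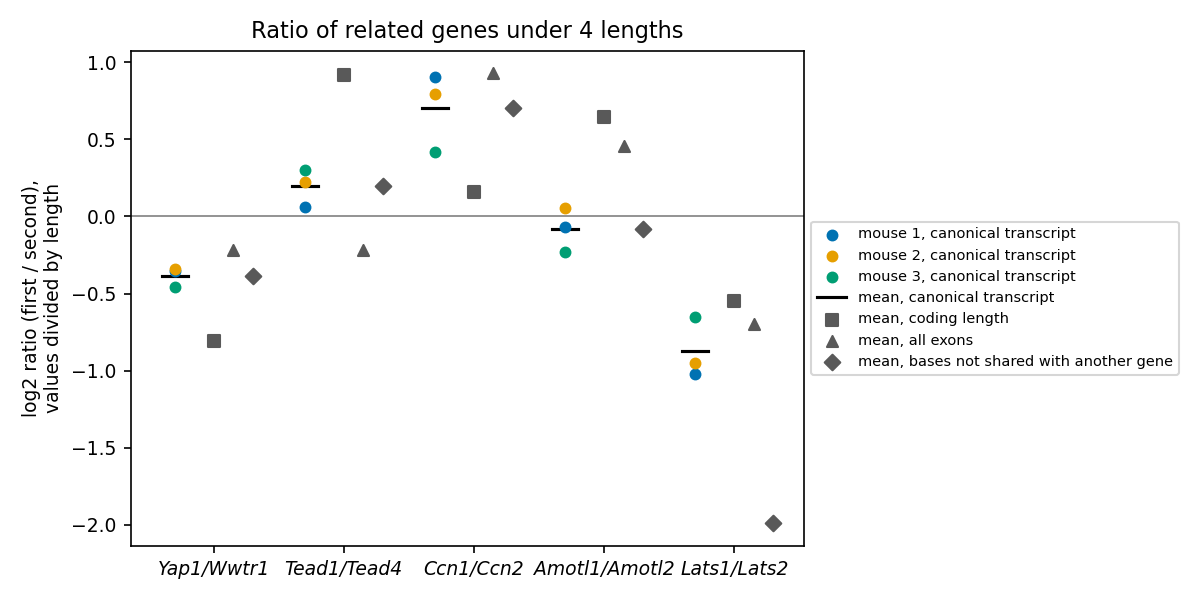
Log2 ratio of the first to the second gene of 5 pairs (vertical axis), from normalized counts divided by length. Coloured points are single mice and bars their mean for the canonical transcript; grey symbols are means under coding length, all exons and bases shared with no other gene. Of the means, only those of Tead1/Tead4 and Amotl1/Amotl2 cross 0 when the length changes. That of Lats1/Lats2 moves from −0.87 to −1.99 without shared bases, to −0.70 with all exons and to −0.55 with coding length.

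By level per kb the order was Ccn1, Wwtr1, Amotl2, Yap1, Amotl1, Ccn2, Lats2, Lats1, Tead1 and Tead4, and 5.88-fold lay between the ends. The coactivators, the angiomotins and the CCN genes made up the upper 6 places, and the kinases and TEAD factors the lower 4. This split holds for the canonical length. Over its unshared bases Lats2 would stand at 434.5 per kb, above Amotl2, and per kb of coding sequence Tead1 (744.4) exceeded Amotl2 (721.2). Of the 9 neighbouring pairs in this order, 5 lay closer together than the larger of the 2 SDs (Ccn1 and Wwtr1, Amotl2 and Yap1, Yap1 and Amotl1, Amotl1 and Ccn2, Lats1 and Tead1). The steps from Wwtr1 to Amotl2, from Ccn2 to Lats2 and from Lats2 to Lats1 were larger than that SD. The step from Tead1 to Tead4 was larger only just. Within mice, Lats1 was above Tead1 in all 3, though their step was within that SD. All 10 genes were above the median of all genes (72.967 per kb) and 7 were above the median of the genes with at least 10 in every mouse. The median over the 10 was 337.55 per kb.

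**Figure D3:**
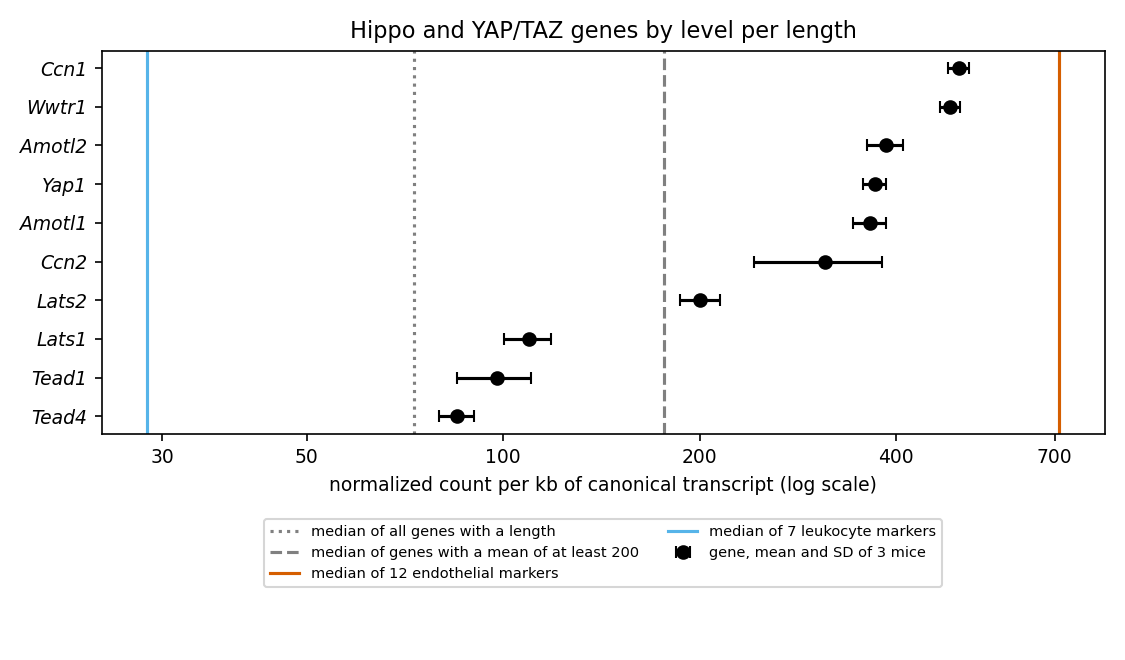
Normalized count per kb of canonical transcript (horizontal log axis) of the 10 genes, as mean and SD of 3 mice. Vertical lines mark medians of all genes, of genes averaging at least 200, and of the endothelial and leukocyte markers. Each of the 10 genes lies between the leukocyte median of 28.493 and the endothelial median of 710.9. The cardiomyocyte median of 445.55, not drawn, is above all of them but Ccn1 and Wwtr1.

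The spread between mice was measured as the coefficient of variation (CV, the SD in percent of the mean). Among the 9358 genes averaging 200 normalized counts or more, 8.00% had a CV over 20%, and of the 10 genes this was 1, Ccn2, with 22.2%. A count of 1 of 10 is near that background. The CVs of the others ran from 3.48% for Wwtr1, 3.75% for Ccn1 and 4.12% for Yap1 to 13.0% for Tead1. Counting alone gives a CV of 3.14% for Ccn1 and 3.43% for Ccn2. The median CV of the 10 genes was 6.22%, and that of all 9358 genes was 7.37%.

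Ccn2 was called through mouse 3, and without it the count was 0. In mouse 3 the 8 immediate early genes, which respond rapidly to many stimuli, summed to 6642 against 5295 and 4884 in mice 1 and 2, and 6 of the 8 were highest there. Egr1, the highest of the 8 by normalized count, had 1254, 996 and 1525, Fos 252, 220 and 652, and Fosb 204, 198 and 707. The fibroblast markers summed to 3047, 3970 and 4186 in mice 1, 2 and 3, with 4 of 8 highest in mouse 3. The mural markers summed to 2232, 2499 and 2694, also with 4 of 8 highest there. Among these 4 was the smooth muscle gene Myh11 (31, 118 and 240), which was picked out after its values were seen. Des, the highest of the mural list by normalized count, was highest in mouse 1, with 1005, 798 and 816. The cardiomyocyte markers had their highest sum in mouse 3 as well, carried by Ttn (7379, 7743 and 10190) and Ryr2 (3280, 3667 and 4486), of which Ryr2 was picked out after its values were seen. Of these 10 markers, 4 were highest in mouse 3 and 5 in mouse 1, and their median per kb was 449, 446.2 and 441.4 in mice 1, 2 and 3. The part of these differences in the value of Ccn2 was not tested.

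Tead1, Tead4, Lats1, Ccn1 and Ccn2 were highest in mouse 3, Yap1, Wwtr1, Lats2, Amotl1 and Amotl2 in mouse 1, and none in mouse 2. Of the 9358 genes, 38.1% were highest in mouse 1, 32.2% in mouse 2 and 29.7% in mouse 3.

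**Figure D4:**
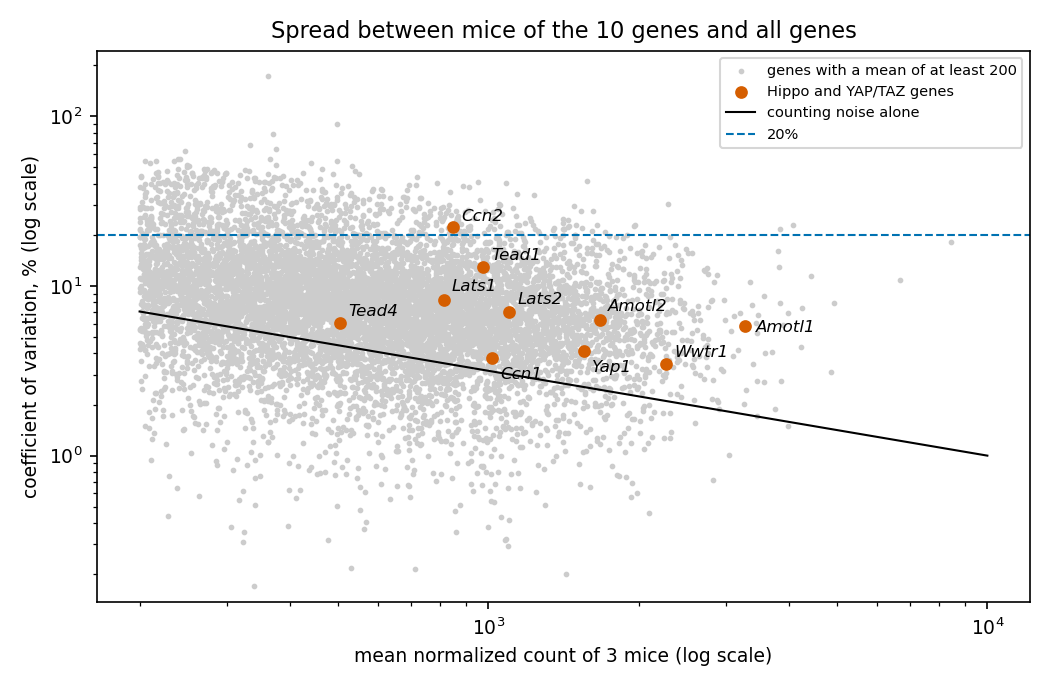
Coefficient of variation over 3 mice against the mean normalized count, both on log axes, for the 9358 genes averaging at least 200 (grey) and the 10 genes (orange). The black line is the spread that counting alone gives and the dashed line is 20%; Ccn2 is the only one of the 10 above 20%, and Ccn1 lies next to the counting line.

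The rest of the pathway was described with a list of 31 further genes, of which 29 are listed in the table, 27 reached 10 in every mouse and 22 exceeded the median of all genes. Their median was 150.77 per kb. Vgll1 and Vgll2 are not listed. In the kinase and scaffold group, 12 of 13 genes reached 10 in every mouse, with a median of 178.79 per kb. Taok2, an upstream kinase, stood at 453.9 per kb, Nf2 (merlin, a membrane scaffold) at 444.7, Mob1a (a LATS cofactor) at 436.8, Sav1 (the MST scaffold) at 377.5 and Map4k4 at 338 per kb. Those 5 were as high as the coactivators or close to them. Below them came Wwc2 (235.5 per kb), the MST2 kinase Stk3 (178.8), Taok1 (160.4), Taok3 (98.8), the MST1 kinase Stk4 (92.3), Mob1b (87.2) and Frmd6 (79.6).

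The scaffold KIBRA (Wwc1) was near 0, with 3, 5 and 11 normalized counts, whereas its paralog Wwc2 had 2074, 1985 and 2086. The paralogs Mob1a and Mob1b were likewise unequal, with 1940, 1924 and 1919 against 716, 776 and 854. Stk3 and Stk4 had similar normalized counts (527, 535 and 501 against 470, 465 and 520) on transcripts of 2914 and 5256 bases.

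Of 9 genes that inhibit the kinases or the coactivators, 8 reached 10 in every mouse, with a median of 150.77 per kb. Strn3 and Strn, striatins that tie a phosphatase to MST kinases, stood at 231 and 88.4 per kb. The LIM proteins that bind LATS stood at 208.3 (Wtip), 162.4 (Limd1) and 99.1 per kb (Ajuba). Ptpn14, which binds YAP and is also a target of it, had 1356, 1375 and 2138, a CV of 27.5% with mouse 3 on top, as for Ccn2. Amot stood at 44.2 per kb, and Rassf6 was at 2, 0 and 4 normalized counts.

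Among the other DNA-binding partners and competitors, Vgll4, which competes with YAP for TEAD, stood at 420.7 per kb, near Tead2 at 395.6, while Tead3 stood at 70.8 and Vgll3 at 3.09. Of the upstream cadherins, Dchs1 stood at 106.9 per kb, Fat4 at 57.3 and Fat1 at 44.8. Dchs1 had 938, 1068 and 1444 normalized counts and a CV of 22.9%, also with mouse 3 on top. Of the 25 listed genes averaging at least 200, Ptpn14 and Dchs1 were the 2 with a CV over 20%, a share equal to the 8.00% of all genes. Without mouse 3 only Fat1 (554 and 779) was over 20%, beside 8.71% of all genes. In all, 19 of the 29 listed genes were highest in mouse 3, where 29.7% of the 9358 genes averaging 200 or more were highest. Only 25 of the 29 averaged 200 or more, so the 2 shares rest on unlike filters.

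**Figure D5:**
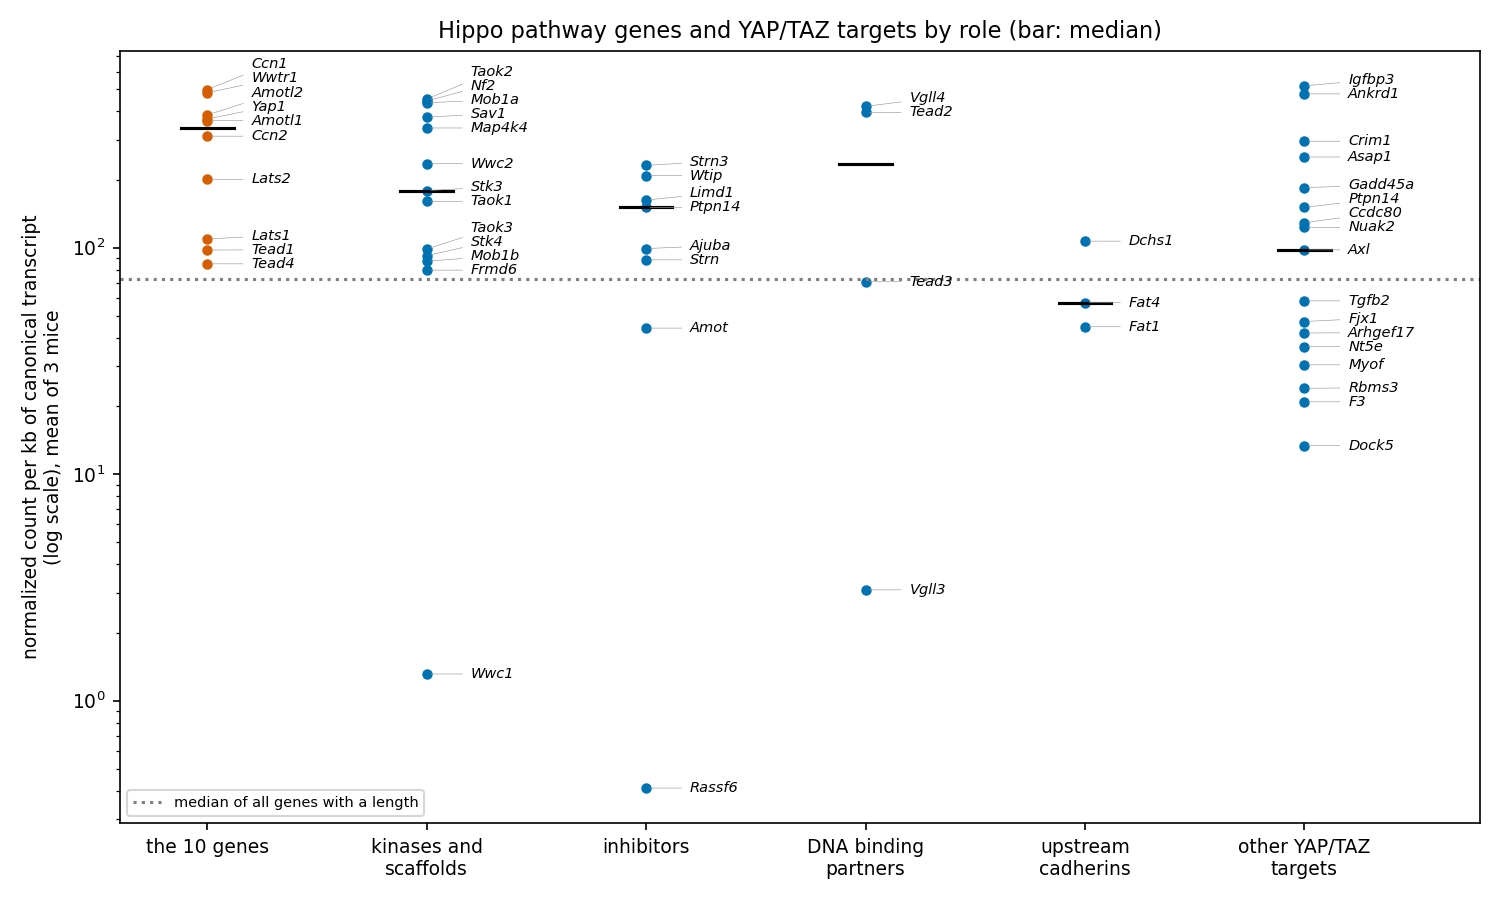
Normalized count per kb of canonical transcript (vertical log axis, mean of 3 mice) for the 10 genes (orange), the other listed pathway genes by role and the other listed YAP/TAZ targets (blue). Bars are group medians over all listed genes (1 of them is not drawn), and the dotted line is the median of all genes; Wwc1, Rassf6 and Vgll3 lie far below the rest.

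A list of 22 widely used YAP and TAZ targets, 4 of them among the 10 genes (Ccn1, Ccn2, Amotl2 and Lats2) and 1 in the pathway list (Ptpn14), had 21 listed genes, all of which reached 10 in every mouse. Foxf2 is not listed. Without the 4, the other 17 had a median of 97.9 per kb, and 9 of them exceeded the median of all genes. The list ran from Igfbp3 (insulin-like growth factor binding protein 3) at 518.6 per kb, Ccn1 at 499 and Ankrd1 at 478.1, to Rbms3 at 23.96, tissue factor F3 at 20.9 and Dock5 at 13.4 per kb. Ankrd1, which is also a stress gene of cardiomyocytes, had 980, 1108 and 819 normalized counts and was lowest in mouse 3, opposite to Ccn2. Of the 16 targets averaging at least 200, 3 had a CV over 20%, beside 8.00% of all genes. These were Ccn2, Ptpn14 and Myof, the last with 122, 219 and 312. All 3 were highest in mouse 3, as were 12 of the 21 listed targets, beside 29.7% of all genes averaging 200 or more. The 21 include targets averaging below 200. Without mouse 3, which was left out after its values were seen, Ccn2 and Ptpn14 were not called. Myof, with 122 and 219 in mice 1 and 2, then averaged below 200 and was not tested. Of the 15 targets still tested, the 3 with a CV over 20% were Ccdc80, Arhgef17 and Tgfb2, beside 8.71% of all genes.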

How the data were processed

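RNA from tagged ribosomes of 3 hearts gave single-end reads 72 bases long. The authors trimmed reads (Trimmomatic 0.39), aligned them to mm39 (STAR 2.7.11a), removed duplicates (Picard 3.1.1) and multi-mapping, ribosomal and mitochondrial reads, counted by strand (featureCounts 2.0.4) and divided by size factors (DESeq2 1.36.0). The deposited values are such normalized counts rounded to whole numbers, treated as a score, so no count model was run. The worth of 1 read (0.961 to 1.06 normalized counts) was read from gaps in low whole numbers. Lengths came from GENCODE vM39 on GRCm39, which held 99.39% of the identifiers. It is newer than the authors' annotation. Ratios were taken within mice and tested by sign flips, with Benjamini-Hochberg adjustment over 5 pairs. The count of genes past the CV threshold was tested on simulated data. Alternatives were other lengths, scalings, filters and thresholds, and each mouse left out. The 10 genes and the lists were chosen with earlier results of these data known. Named were the 10 genes, every pathway gene except 1 that is counted in its list but not reported here by name, the 3 highest and lowest targets, Ankrd1, targets with a CV over 20%, genes not listed, the highest gene of each marker list by normalized count, and Fos and Fosb. Myh11, Ryr2, Fat1 without mouse 3, Ccdc80, Arhgef17 and Tgfb2 were named after their values were seen. Python 3.11.15, numpy 2.4.6, pandas 2.3.3 and matplotlib 3.10.9 were used.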

Additional observations from a re-analysis of the deposited data

How the results depend on the processing

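With 3 mice, no control library and values without raw counts, these data give levels and no changes. All 50 recomputed mean levels, under 2 other scalings and with each mouse left out, stayed within 1 SD of the value reported. Leaving out 1 of 3 mice cannot move a mean by 1 SD. The libraries had also been scaled to similar sums beforehand, so this is no check of the levels. Of 35 recomputed ratios of related genes, 32 kept their direction and 3 reversed, all on changing the length: Tead1 to Tead4 to −0.2169 with all exons, and Amotl1 to Amotl2 to 0.4552 with all exons and 0.6442 with coding length. Where all 3 mice shared a sign, leaving 1 out could not reverse the ratio. Adding 1 to each value does little at these counts, and the length without shared bases changes Lats2 only. Most of the 32 are therefore no check of the direction. No test could pass in any of the 35. The count of the 10 genes with a CV over 20% went from 1 to 0 when the threshold was 25% (then 4.77% of all genes), and ranged from 0 (without mouse 3) to 1 with a mouse left out. The median of the pathway list ranged from 126.8 (without mouse 3) to 162 per kb with a mouse left out, and with all exons it was 86 per kb and that of the targets 104.9, beside 39.05 over all genes. The percentiles of the 10 genes moved by more than their spread between mice in 18 of 80 recomputations. All 18 used all exons or only the genes with at least 10 in every mouse. With all exons only Lats2 stayed within its spread, and among the genes with at least 10 only Ccn2 did. Tead4 had the widest range, from above 40.7% to above 69.64% of genes. No paired analysis was possible because all libraries belong to 1 group, so no 2 groups can be paired; the ratios above are within mice.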
